A study of Mus musculus with 12 samples.

Results

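Metallothioneins and the proteins that carry zinc across membranes were followed in injured and treated mouse lung through 10 genes: the metallothioneins Mt1 and Mt2, the zinc-sensing transcription factor Mtf1, the importers Slc39a14, Slc39a8, Slc39a1 and Slc39a2, and the exporters Slc30a1, Slc30a4 and Slc30a7. They were picked by symbol from a table of 38349 genes. All 10 symbols were found once each, and all 10 passed the filter on low counts that left 22915 genes for testing. RNA of whole lung from wild type mice was sequenced in 12 libraries, 3 in each of 4 groups. Control lungs had no injury, and lungs of the ALI group were injured by hypoxia with LPS (lipopolysaccharide, a bacterial endotoxin). The other two groups, MSC and tpMSC, had the injury and received the treatment they are named for. The labels give no strain, age, sex, dose or time of sampling, nor what sets tpMSC apart from MSC. The labels do not say that the libraries of a group came from separate animals. The tests thus judge differences against the spread between these libraries, whether biological or technical. That spread was larger than counting noise in every pair of a group, with a chi-square per gene of 20.6 to 136.1.

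Metallothioneins are small proteins whose many cysteines hold zinc and copper. When free zinc rises, MTF1 binds metal response elements in the promoters of metallothionein genes and of Slc30a1 and switches them on, and inflammatory cytokines and glucocorticoids are further known inducers of Mt1 and Mt2. Proteins of the ZIP family (Slc39 genes) bring zinc into the cytosol from outside the cell or from vesicles, while those of the ZnT family (Slc30 genes) move it out of the cytosol. In inflammation ZIP14 (Slc39a14) is known as an interleukin 6-induced importer of the liver, and ZIP8 (Slc39a8) as a target of NF-kB.

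The 4 promoters below are shown because they hold the most matches to the core of the metal response element, the sequence MTF1 binds, among the members with an entry in the promoter table. Each runs 5′ to 3′ from 250 bases before the annotated start site to 30 bases after it, from RefSeq on GRCm38.p6. Capitals mark the letters TGCACNC or TGCGCNC on either strand. The stretches are chr8:94178839-94179118 (plus strand) for Mt1, chr8:94172368-94172647 (plus strand) for Mt2, chr1:191906531-191906810 (plus strand) for Slc30a1 and chr2:122702634-122702913 (minus strand) for Slc30a4.
Mt1: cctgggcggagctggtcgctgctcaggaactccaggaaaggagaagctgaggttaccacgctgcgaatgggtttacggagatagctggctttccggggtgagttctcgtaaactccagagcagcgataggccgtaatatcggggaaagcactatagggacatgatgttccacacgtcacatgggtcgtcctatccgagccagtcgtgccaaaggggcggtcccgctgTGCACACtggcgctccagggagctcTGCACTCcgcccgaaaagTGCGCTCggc
Mt2: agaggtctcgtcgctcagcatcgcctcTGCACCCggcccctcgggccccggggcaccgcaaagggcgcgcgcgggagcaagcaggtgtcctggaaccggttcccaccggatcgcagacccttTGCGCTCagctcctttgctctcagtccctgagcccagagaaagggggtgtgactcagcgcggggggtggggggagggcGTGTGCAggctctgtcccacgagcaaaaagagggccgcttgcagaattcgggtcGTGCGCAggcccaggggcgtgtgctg
Slc30a1: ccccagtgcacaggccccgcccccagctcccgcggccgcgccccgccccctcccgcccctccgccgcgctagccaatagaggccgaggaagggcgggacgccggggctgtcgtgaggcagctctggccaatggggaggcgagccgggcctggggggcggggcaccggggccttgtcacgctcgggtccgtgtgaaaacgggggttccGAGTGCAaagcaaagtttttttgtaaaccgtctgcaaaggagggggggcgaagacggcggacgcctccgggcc
Slc30a4: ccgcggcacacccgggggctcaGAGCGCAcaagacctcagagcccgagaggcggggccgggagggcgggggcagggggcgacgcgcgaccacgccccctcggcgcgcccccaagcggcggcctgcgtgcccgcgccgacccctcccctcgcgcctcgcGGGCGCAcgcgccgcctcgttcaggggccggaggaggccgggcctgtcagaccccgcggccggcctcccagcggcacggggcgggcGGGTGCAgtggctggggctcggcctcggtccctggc

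Motifs were counted in the whole windows of 300 bases, which reach 50 bases past the start site. The promoter of Mt2 held 4 matches to the metal response element core, and that of Mt1 held 3. Those of Mt1 begin at bases -23, 3 and 21 from the annotated start site. All motif counts here depend on the start site that is annotated, and sites beyond the windows were not searched. A motif not found in a window may thus lie outside it. Among all 32851 promoters in the table, 25.7% held at least 1 match, 1.97% held 3 or more and 0.517% held 4 or more. Slc30a4, which was called changed in no comparison here, also had 3, and Slc30a1 had 2, of which 1 lies beyond the stretch printed. Slc39a8 has 2 annotated starts in the table, with no match at the first and 1 at the second. No match was found at Mtf1, Slc39a1, Slc39a2 or Slc30a7. Slc39a14 has no entry in the table.

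Letters bound by other regulators were searched in the same windows on both strands. The hypoxia response element (ACGTG or GCGTG) was found in 7 of the 10 member windows and in 43.8% of all promoters. An antioxidant response element (TGACNNNGC) was found in 4 of the 10 and in 12.4% of all promoters, among them those of Mt2, Slc39a1, Slc30a1 and the first start of Slc39a8. The glucocorticoid receptor motif AGAACA was found in 1 member window, that of Mtf1, and in 19.0% of all promoters. The STAT site TTCNNNGAA was found in none of the 10 and in 8.3% of all promoters. In Mt2 and in Slc30a4, 1 match to the metal response element core shares bases with a hypoxia element, and in Slc30a1 an antioxidant element shares bases with a hypoxia element. A match describes letters and does not show that a factor binds there.

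**Figure D1:**
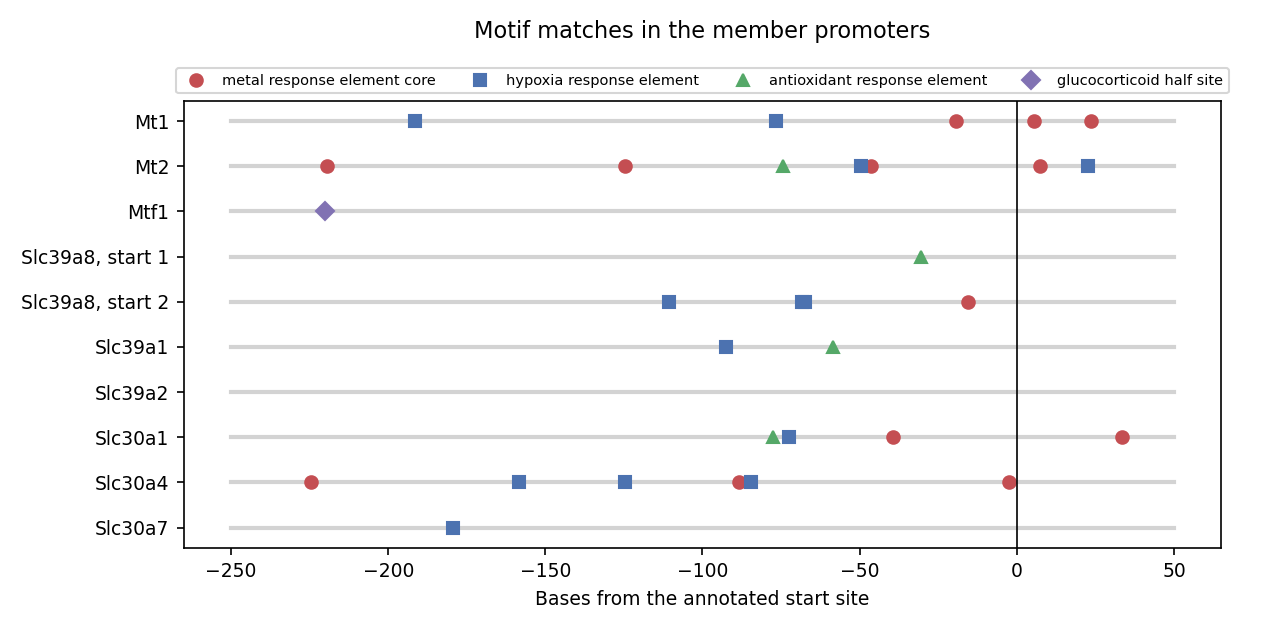
Positions of motif matches in the member promoters, by distance in bases from the annotated start site (horizontal axis, 250 bases before to 50 after), with 1 line per promoter and 1 symbol per motif. Mt2 carries 4 matches to the metal response element core, Mt1 and Slc30a4 carry 3 each and Slc30a1 carries 2.

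Libraries held 53083002 to 70209229 counts. The lung markers Sftpc, Scgb1a1 and Ager were abundant in every library, the lowest value of Ager being 554.3 FPKM (fragments scaled by transcript length and library depth, the scale used here for levels). Markers of several cell types differed between the groups. All 10 neutrophil markers rose in ALI, with a summed level of 145.1 to 238.6 FPKM in Control, 3911 to 4355 in ALI, 490.0 to 1016 in MSC and 481.7 to 629.1 in tpMSC. All 8 endothelial markers fell in ALI, from 872.8 to 883.6 FPKM in Control to 443.1 to 491.5 in ALI, and lay at 515.1 to 664.9 in MSC and 661.7 to 744.8 in tpMSC. Of the 8 monocyte markers, 6 rose in ALI, and the sums were 170.2 to 204.2 FPKM in Control, 573.2 to 660.2 in ALI, 203.3 to 797.3 in MSC and 465.3 to 512.4 in tpMSC. Of the 8 alveolar macrophage markers, 5 fell in ALI, from sums of 313.2 to 380.2 FPKM to 65.5 to 74.83, and tpMSC libraries lay at 402.2 to 609.7. The MSC libraries stood far apart on that list, at 300.8, 764.0 and 54.0 FPKM. Club cell markers fell in ALI (5 of 5) and rose with tpMSC against ALI (5 of 5), and 6 of 7 alveolar type 1 markers fell and 1 rose in ALI. Of the 8 alveolar type 2 markers 2 rose and 4 fell in ALI, and of the 7 fibroblast markers 2 rose and 3 fell. With tpMSC against ALI, all 5 B cell markers fell and all 5 smooth muscle markers rose. Of all genes tested, 20.2% were called higher and 19.6% lower in ALI, and 11.6% higher and 11.5% lower with tpMSC against ALI. Chil3 is on both the monocyte and the macrophage list, and no marker on the neutrophil, endothelial, monocyte and macrophage lists was at 0 throughout any group. Fewer cells of a type and less RNA per cell cannot be told apart in such data, and the part that cell makeup has in the results below was not tested.

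Injury raised both metallothioneins and 3 of the 4 importers, and 1 of the 3 exporters rose by a smaller amount. ALI was compared with Control to ask what hypoxia and LPS change in the lung, with the edgeR quasi-likelihood test over all genes and Benjamini-Hochberg adjustment. Of the 10 genes, 6 were called higher at an adjusted p under 0.05 and 0 lower, where 20.2% of all genes tested were called higher and 19.6% lower (39.8% in either direction). The 10 genes were chosen with earlier results of these data known. Here and below, such counts beside the share of all genes are therefore a description and no test of the set. At an unadjusted p under 0.05, 7 were higher and 0 lower, and DESeq2 and limma also called 0 lower. The median log2 difference was 0.75 over the 10 genes and -0.02 over all genes tested. On log2 CPM scaled by TMM, the ALI and Control libraries did not overlap for 7 of the 10, which held for 55.9% of all genes tested. Counts of genes without overlap are on that scale throughout, while overlap of printed FPKM values is described gene by gene.

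Mt2, which lies at chr8:94172664-94173568 on GRCm38, stood at 4.54, 4.91 and 4.78 FPKM in the Control libraries and at 175.1, 179.9 and 167.8 FPKM in the ALI libraries. The ranges lay far apart. It was 38.1-fold higher in ALI, a log2 difference of 5.25 ± 0.18 (SE; adjusted p = 1.964e-08, edgeR quasi-likelihood test). Mt1, whose start is 5513 bases past the end of Mt2 on the same strand (chr8:94179082-94180327), stood at 9.84, 10.9 and 11.7 FPKM in Control and at 69.2, 76.6 and 74.4 FPKM in ALI. Every ALI library was again above every Control library. The rise was 7.08-fold, or 2.82 ± 0.18 in log2 (SE; adjusted p = 1.162e-06, edgeR).

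The neighbours thus changed order: Mt2 was the lower of the pair in all 3 Control libraries and the higher in all 3 ALI libraries. The ratio of Mt2 to Mt1, both per length, was 0.461, 0.450 and 0.409 in Control and 2.53, 2.35 and 2.25 in ALI. Among the 10 genes, Mt2 ranked 7 in Control and 1 in ALI by mean FPKM. FPKM divides by length, and the annotated exons of Mt1 merge to 1246 bases, its whole span, against 588 for Mt2. In raw counts Mt2 held 188, 218 and 210 in Control and 7374, 6172 and 6894 in ALI. Mt1 held 861, 1023 and 1084 in Control and 6179, 5569 and 6479 in ALI. The order thus changed in raw counts as well, but the size of the ratio and the ranks depend on the lengths used. The summed level of the pair went from 15.6 ± 1.06 FPKM (SD, n = 3) to 247.7 ± 7.68 (SD, n = 3).

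An antisense gene, Gm45774, covers 73.5% of the exon bases of Mt2. Library preparation marked the strand, but no source used here says whether counting used it. Gm45774 held 1.16% to 13.9% as many counts as Mt2 in the 12 libraries. By group this was 3.21% to 11.7% in Control, 7.27% to 12.3% in ALI, 5.0% to 13.9% in MSC and 1.16% to 3.94% in tpMSC. The level of Mt2 is thus uncertain if counting ignored strand. Mt1 shared none of its 75-base stretches with another gene.

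**Figure D2:**
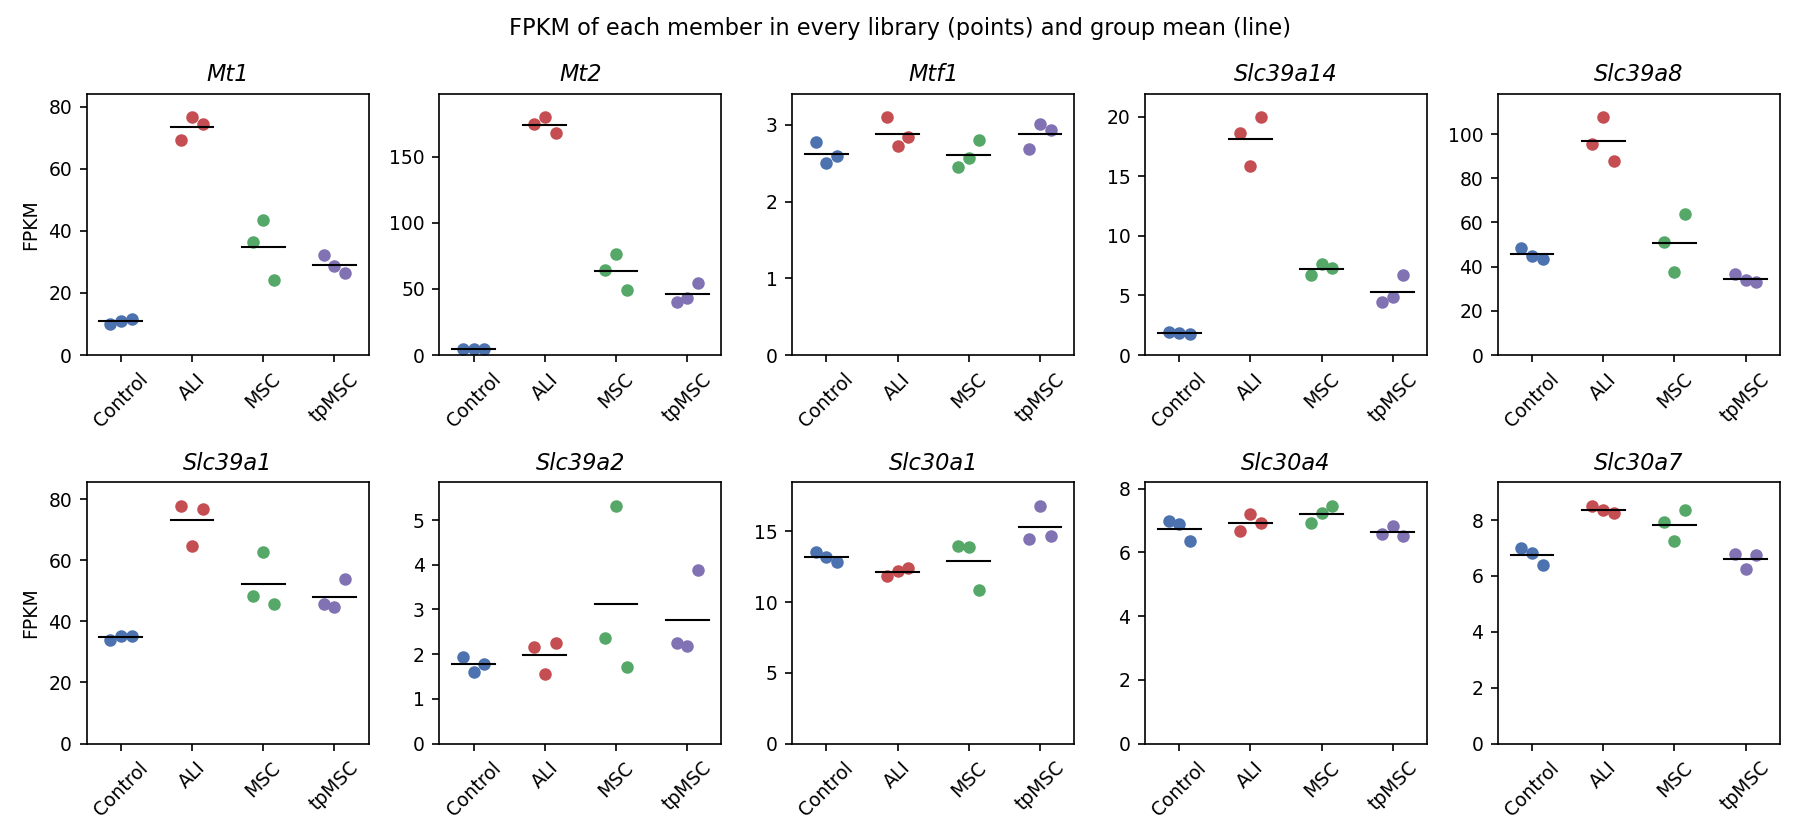
FPKM of each of the 10 genes (vertical axis, from 0, own scale per panel) in the 12 libraries (points) with the group mean (line), by group. Mt1, Mt2 and Slc39a14 are lowest in Control, highest in ALI and between these in both treated groups, while Slc30a4 stays between 6.34 and 7.46 FPKM throughout.

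Mtf1, the zinc sensor itself, was not called changed. It stood at 2.78, 2.50 and 2.60 FPKM in Control and at 3.10, 2.72 and 2.84 in ALI. The FPKM ranges overlap, with the lowest ALI library under the highest Control library. The log2 difference of 0.20 ± 0.09 (SE) was not called (adjusted p = 0.0909, edgeR). An antisense gene, 1110065P20Rik, covers 8.09% of its exon bases and held 32.6% to 60.6% as many counts, so the level of Mtf1 is uncertain if counting ignored strand.

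Among the importers, Slc39a14, the acute phase importer ZIP14 (chr14:70303469-70351425), moved furthest. Control libraries held 1.89, 1.84 and 1.78 FPKM and ALI libraries 18.6, 15.9 and 19.9 FPKM, with no overlap. It was 10.3-fold higher in ALI, a log2 difference of 3.36 ± 0.15 (SE; adjusted p = 1.355e-07, edgeR). It held 2.19% of the summed FPKM of the 4 importers in Control and 9.54% in ALI.

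Slc39a8, which encodes ZIP8, an importer of zinc, manganese and other metals (chr3:135825279-135888572), was the most abundant member in Control. It measured 48.6, 44.7 and 43.3 FPKM there and 95.3, 107.6 and 87.9 FPKM in ALI. All ALI libraries were above all Control libraries, by 1.15 ± 0.16 in log2 (SE; adjusted p = 0.000149, edgeR). Slc39a1, which encodes ZIP1, a plasma membrane importer found in most cell types (chr3:90248172-90253612), rose almost as much. Its levels of 33.8, 35.2 and 35.3 FPKM in Control and 77.9, 64.6 and 76.9 FPKM in ALI did not overlap, and the log2 difference was 1.13 ± 0.12 (SE; adjusted p = 2.89e-05, edgeR). A pseudogene, Slc39a1-ps, shares 17.9% of its 75-base stretches.

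Slc39a2, encoding the importer ZIP2, stayed low. It stood at 1.94, 1.60 and 1.78 FPKM in Control and at 2.17, 1.55 and 2.25 FPKM in ALI, in overlapping ranges. Its log2 difference of 0.23 ± 0.36 (SE) was not called (adjusted p = 0.661, edgeR). A gene on the same strand, Mettl17, covers 4.38% of its exon bases and held 124% to 574% as many counts. Strand cannot tell apart reads from the shared bases, which leaves the level of Slc39a2 less certain.

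Exporters differed less between ALI and Control. Slc30a1, the plasma membrane exporter ZnT1 and a known MTF1 target, was at 13.6, 13.2 and 12.9 FPKM in Control and at 11.8, 12.2 and 12.4 FPKM in ALI, which is lower in every ALI library on this scale. The fitted log2 difference, scaled by TMM, was -0.06 ± 0.10 (SE; adjusted p = 0.655, edgeR), with a 95% interval from -0.27 to 0.15. That interval holds no rise of the size seen for Mt1 or Mt2.

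Slc30a4, encoding ZnT4 of the endosomal and secretory compartments, was at 6.99, 6.88 and 6.34 FPKM in Control and 6.67, 7.19 and 6.92 in ALI, with overlap. Its log2 difference was 0.10 ± 0.07 (SE; adjusted p = 0.258, edgeR). Slc30a7, encoding ZnT7, which loads the Golgi with zinc, was the only exporter of the 3 to be called. It went from 7.00, 6.81 and 6.39 FPKM to 8.51, 8.37 and 8.24 FPKM without overlap, by 0.38 ± 0.07 in log2 (SE; adjusted p = 0.00113, edgeR). Elf1 and the pseudogenes Gm43106 and Gm6649 hold 14.9% of the 75-base stretches of Slc30a7. Elf1 held 91.9% to 125% as many counts as Slc30a7, and its own part of the shared stretches was not separated. The level of Slc30a7 is thus less certain.

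Summed over the 4 importers, the level was 83.9 ± 2.10 FPKM (SD, n = 3) in Control and 190.2 ± 3.50 (SD, n = 3) in ALI. Summed over the 3 exporters, it was 26.7 ± 1.00 FPKM (SD, n = 3) and 27.4 ± 0.403 (SD, n = 3). The ratio of importers to exporters, both summed per length, was 3.13, 3.10 and 3.21 in the Control libraries and 7.18, 6.83 and 6.78 in the ALI libraries. Only the members are in these sums, and the other ZIP and ZnT genes described below are not. The ratio is thus not one of the whole families. Transcript levels are described here, and zinc itself was not measured.

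**Figure D3:**
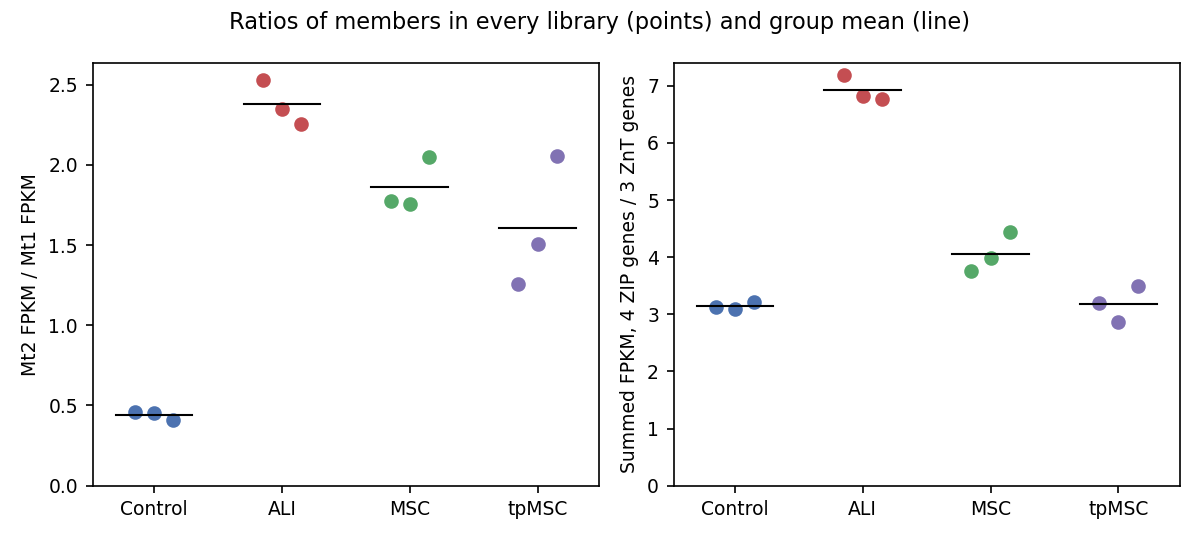
Ratio of Mt2 to Mt1 FPKM and ratio of the summed importer FPKM to the summed exporter FPKM (vertical axes, from 0) in each library (points) with the group mean (line). On average both ratios are lowest in Control and highest in ALI, and in tpMSC the importer to exporter ratio of 2.87 to 3.49 spans the Control values.

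The order of levels in Control began with Slc39a8 and Slc39a1, which did not overlap, followed by Slc30a1 and Mt1. Slc30a4 and Slc30a7 came next with overlapping ranges, then Mt2 and Mtf1, and last Slc39a14 and Slc39a2, which also overlapped. In ALI the order was Mt2, Slc39a8, then Mt1 and Slc39a1 with overlapping ranges, Slc39a14, Slc30a1, Slc30a7, Slc30a4, Mtf1 and Slc39a2. The other neighbours in that order did not overlap.

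With MSC treatment, the genes that had risen most in injury were lower than in untreated injury. The comparison of MSC with ALI asks what the treatment changes. It called 0 of the 10 genes higher and 5 lower (edgeR, Benjamini-Hochberg adjusted), where 5.03% of all genes tested were called higher and 5.21% lower (10.2% in either direction). At an unadjusted p under 0.05, 0 were higher and 6 lower, and DESeq2 and limma also called 0 higher. The median log2 difference was -0.37 over the 10 genes and 0.02 over all genes tested, and the libraries did not overlap for 7 of the 10, against 27.0% of all genes tested.

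Mt2 stood at 64.6, 76.4 and 49.5 FPKM in the MSC libraries, all under the ALI libraries and all above the Control libraries. It fell by 1.51 ± 0.15 on the log2 scale against ALI (SE; adjusted p = 0.000218, edgeR). Mt1 stood at 36.4, 43.5 and 24.2 FPKM, also between the ranges of Control and ALI. It fell by 1.13 ± 0.16 in log2 (SE; adjusted p = 0.00195, edgeR).

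Slc39a14 was at 6.73, 7.65 and 7.28 FPKM, the tightest of the called genes in this group. It fell by 1.38 ± 0.14 in log2 against ALI (SE; adjusted p = 0.000331, edgeR). Slc39a8 was at 51.1, 37.4 and 64.0 FPKM, below every ALI library but on both sides of the Control range. It fell by 0.98 ± 0.16 in log2 (SE; adjusted p = 0.00303, edgeR).

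Slc39a1 was at 48.4, 62.6 and 45.6 FPKM and fell by 0.54 ± 0.12 in log2 (SE; adjusted p = 0.0174, edgeR), with no overlap with ALI. This call was lost in a fit of the MSC and ALI libraries alone (adjusted p = 0.0701, edgeR) and when ALI 1, ALI 3, MSC 1 or MSC 3 was left out (adjusted p between 0.0528 and 0.0802). Mtf1 stood at 2.45, 2.57 and 2.80 FPKM, overlapping the ALI range, and was not called (log2 difference -0.20 ± 0.09, SE; adjusted p = 0.186, edgeR).

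No exporter was called against ALI. Slc30a1 was at 14.0, 13.9 and 10.9 FPKM, Slc30a4 at 6.92, 7.24 and 7.46 FPKM and Slc30a7 at 7.92, 7.24 and 8.35 FPKM. Slc39a2 was at 2.35, 5.32 and 1.71 FPKM, a spread that 1 library set, and was not called either (adjusted p = 0.350, edgeR).

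The 3 MSC libraries differed among themselves, both in these genes and in cell markers. MSC 2 had the highest Mt1, Mt2, Slc39a14, Slc39a1 and Slc39a2 and the lowest Slc39a8 of the group, and the highest monocyte (797.3 FPKM) and alveolar macrophage (764.0 FPKM) sums. MSC 3 had the lowest Mt1, Mt2, Slc39a1, Slc39a2 and Slc30a1 and the highest Slc39a8, with the lowest monocyte (203.3 FPKM) and macrophage (54.0 FPKM) sums and the highest neutrophil sum (1016 FPKM). Mtf1, Slc30a4 and Slc30a7 were instead highest in MSC 3, and Slc39a14 was lowest in MSC 1, so the 10 genes did not share 1 order. The monocyte and macrophage sums both hold Chil3, so they are not separate readings of 2 cell types. Over the 8 monocyte markers the median log2 difference of MSC against ALI was -0.73, though the MSC 2 sum lay above the ALI sums. The part these markers have in the spread was not tested.

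With tpMSC, both metallothioneins, 3 importers and Slc30a7 were lower and Slc30a1 was higher than in untreated injury. Against ALI, 1 of the 10 genes was called higher and 6 lower (edgeR, Benjamini-Hochberg adjusted), where 11.6% of all genes tested were called higher and 11.5% lower (23.1% in either direction). The median log2 difference was -0.50 over the 10 and 0.01 over all genes tested. For 7 of the 10, the libraries did not overlap, against 40.5% of all genes tested.

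Mt2 stood at 40.3, 42.9 and 54.3 FPKM in the tpMSC libraries and fell by 1.95 ± 0.15 in log2 against ALI (SE; adjusted p = 2.205e-05, edgeR). Mt1 stood at 32.1, 28.5 and 26.4 FPKM and fell by 1.37 ± 0.17 (SE; adjusted p = 0.000236, edgeR). Both lay between the ranges of Control and ALI in every tpMSC library.

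Slc39a14 was at 4.42, 4.86 and 6.70 FPKM and fell by 1.79 ± 0.14 in log2 (SE; adjusted p = 2.509e-05, edgeR). Slc39a8 was at 36.7, 33.9 and 33.0 FPKM, under every ALI library and also under every Control library. It fell by 1.51 ± 0.16 in log2 against ALI (SE; adjusted p = 0.000105, edgeR). Slc39a1 was at 45.6, 44.8 and 53.9 FPKM and fell by 0.63 ± 0.12 (SE; adjusted p = 0.00343, edgeR).

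Of the exporters, Slc30a7 was at 6.80, 6.25 and 6.75 FPKM, overlapping the Control range, and fell by 0.37 ± 0.07 in log2 against ALI (SE; adjusted p = 0.00291, edgeR). Slc30a1 was at 14.4, 16.8 and 14.7 FPKM, above all ALI and all Control libraries. It was higher than in ALI by 0.31 ± 0.10 in log2 (SE; adjusted p = 0.0366, edgeR). That call was lost without the filter on low counts (adjusted p = 0.0507, edgeR) and without Control 2, any of the 3 ALI libraries, or tpMSC 2 (adjusted p between 0.0524 and 0.168). Slc30a4 was at 6.56, 6.81 and 6.51 FPKM and was not called (adjusted p = 0.380, edgeR).

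Mtf1 at 2.68, 3.01 and 2.94 FPKM and Slc39a2 at 2.25, 2.18 and 3.89 FPKM were not called against ALI. Their adjusted p-values were 0.850 and 0.412 (edgeR).

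**Figure D4:**
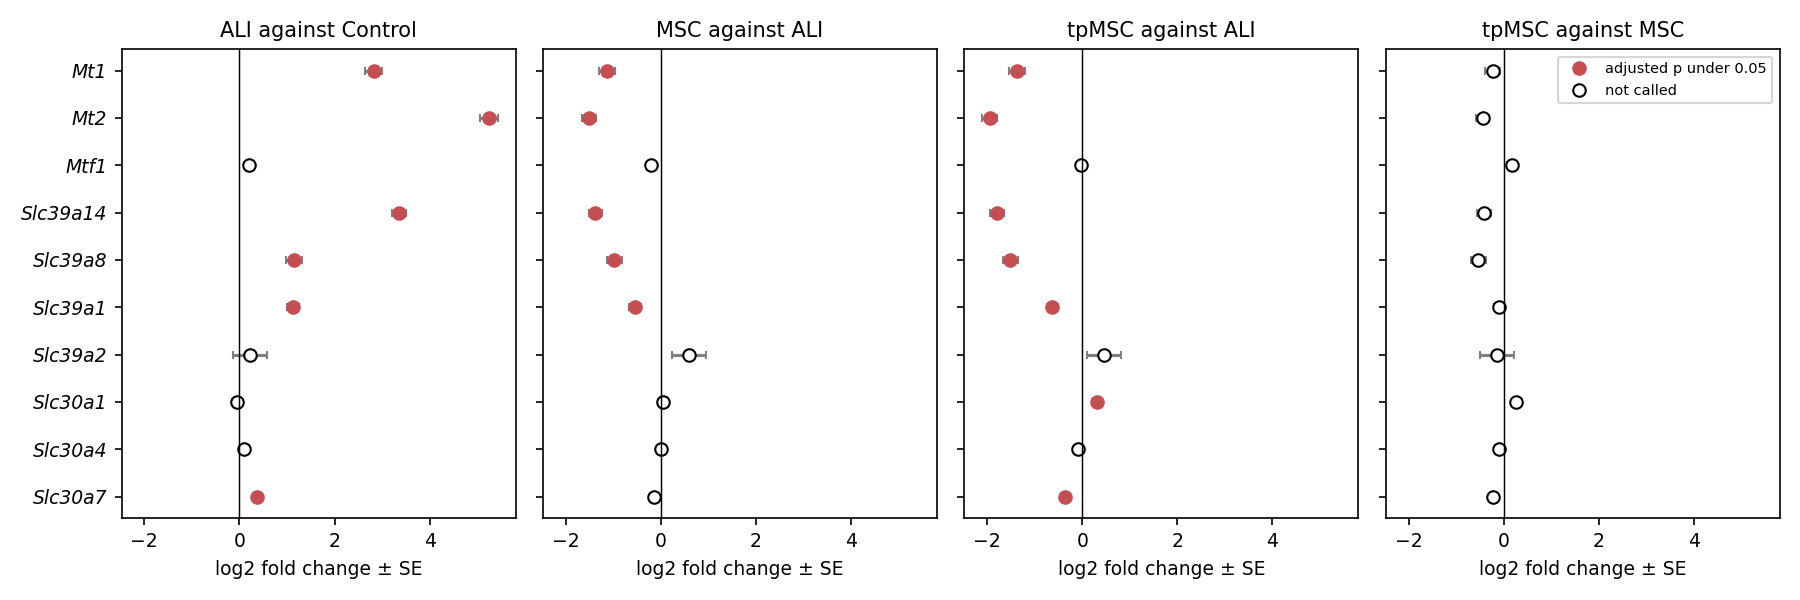
Log2 fold change (horizontal axis; points, with bars for the SE) of the 10 genes in 4 comparisons, filled where the Benjamini-Hochberg adjusted p of the edgeR test was under 0.05. The 6 genes called higher in ALI lie left of 0 in both comparisons of a treated group with ALI, and no gene is filled for tpMSC against MSC.

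Comparing the treatments directly, none of the 10 genes passed the test. The comparison of tpMSC with MSC called 0 higher and 0 lower (edgeR, Benjamini-Hochberg adjusted), where 0.0175% of all genes tested were called higher and 0.0131% lower (0.0305%, or 7 genes, in either direction). Of those 7 calls 57.1% were higher, against 25% of 4 with DESeq2 size factors. At an unadjusted p under 0.05, 1 was higher and 4 lower. DESeq2 called 1 lower, Slc39a8 (adjusted p = 0.0277), and limma called 0. The groups did not overlap for 3 of the 10, which held for 14.2% of all genes tested.

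Those 3 were Slc39a8, lower in every tpMSC library, Slc30a7, also lower, and Slc30a1, higher. Slc39a8 had the largest difference, -0.53 in log2 with a 95% interval from -0.87 to -0.19 that is not adjusted for the number of genes (adjusted p = 0.188, edgeR). It was called without MSC 2 (adjusted p = 0.0482, edgeR). For Slc30a7 the difference was -0.22, with an interval from -0.37 to -0.07, and for Slc30a1 it was 0.27, with an interval from 0.06 to 0.48. Their adjusted p-values were 0.211 and 0.266 (edgeR).

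Mt2 differed by -0.44 in log2 with an interval from -0.76 to -0.13, and Mt1 by -0.23 with an interval from -0.59 to 0.12. Their adjusted p-values were 0.231 and 0.616 (edgeR). Slc39a14 differed by -0.41, with an interval from -0.72 to -0.11 (adjusted p = 0.247, edgeR), and was called lower when tpMSC 3 was left out (adjusted p = 0.0174). Slc39a1 differed by -0.09, with an interval from -0.36 to 0.17. None of these results shows that the treatments act alike on these genes.

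How much of the injury change was still present was described against Control, with the same Control libraries as above. MSC against Control called 5 of the 10 genes higher and 0 lower (edgeR, Benjamini-Hochberg adjusted), where 10.7% of all genes tested were called higher and 8.00% lower (18.7% in either direction). At an unadjusted p under 0.05, 6 were higher and 0 lower, and DESeq2 and limma also called 0 lower. For tpMSC against Control, 4 were called higher and 0 lower, where 9.10% of all genes tested were called higher and 6.79% lower (15.9% in either direction). At an unadjusted p under 0.05, 5 were higher and 1 lower, and DESeq2 and limma called 0 lower. In that comparison 57.3% of the calls over all genes were higher, against 43.5% with limma on log2(FPKM + 1).

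Mt2 was the furthest from Control in both groups. It remained higher by 3.75 ± 0.16 in log2 with MSC (SE; adjusted p = 4.046e-07, edgeR) and by 3.30 ± 0.16 with tpMSC (SE; adjusted p = 1.432e-06, edgeR). Mt1 was higher by 1.69 ± 0.17 (SE; adjusted p = 0.000154, edgeR) and by 1.46 ± 0.17 (SE; adjusted p = 0.000587, edgeR).

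Slc39a14 was higher than in Control by 1.98 ± 0.15 in log2 with MSC and by 1.57 ± 0.14 with tpMSC (SE). The adjusted p-values were 2.041e-05 and 0.000165 (edgeR). Slc39a1 was higher by 0.60 ± 0.12 and by 0.51 ± 0.12 (SE), with adjusted p-values of 0.00624 and 0.0171 (edgeR). The tpMSC call of Slc39a1 was lost without Control 1, Control 2 or tpMSC 3 (adjusted p between 0.0553 and 0.0666).

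Slc39a8 was not called against Control in either group. With MSC its log2 difference was 0.17 ± 0.16 (SE; adjusted p = 0.497, edgeR). With tpMSC it was -0.36 ± 0.16 (SE; adjusted p = 0.139, edgeR), although the groups did not overlap. It was called lower in a fit of the tpMSC and Control libraries alone (adjusted p = 0.0135, edgeR) and without MSC 2 (adjusted p = 0.0358) or MSC 3 (adjusted p = 0.0491).

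Slc30a7 was higher with MSC by 0.23 ± 0.07 in log2 (SE; adjusted p = 0.0380, edgeR) and differed by 0.01 ± 0.07 with tpMSC (SE; adjusted p = 0.959, edgeR). The call with MSC was lost with the replicate number as a block (adjusted p = 0.0559), with limma, in a fit of those libraries alone (adjusted p = 0.0817), and without any 1 of Control 1, Control 2, Control 3, ALI 1, ALI 3, MSC 1, MSC 3 or tpMSC 1 (adjusted p up to 0.134). Slc30a1 differed from Control by 0.25 ± 0.10 in log2 with tpMSC (SE; adjusted p = 0.0997, edgeR) and was called without MSC 3 (adjusted p = 0.0367). Slc39a2 differed by 0.83 ± 0.37 with MSC (SE; adjusted p = 0.141, edgeR) and rests on MSC 2: without that library it was 0.20 (adjusted p = 0.689, edgeR), and without MSC 3 it was called (adjusted p = 0.0485, edgeR). The numbers of genes whose groups did not overlap were 5 with MSC and 7 with tpMSC, where 38.6% and 39.3% of all genes tested did not overlap.

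Each library was also placed on the scale from Control (0%) to ALI (100%) in log2 CPM for the 6 genes called in ALI. These placements share the Control and ALI libraries, so they are given as a description. On average Mt2 stayed nearest to ALI on this log2 scale, at 70.9% ± 5.9 (SD, n = 3) with MSC and 62.6% ± 4.6 (SD, n = 3) with tpMSC. Single libraries overlapped: with MSC, Mt2 lay at 64.7% to 76.4%, while Mt1 reached 71.6%, Slc39a1 76.3% and Slc30a7 88.8%. Mt2 also had the largest log2 fall from ALI of the 10 genes, by 1.51 with MSC and 1.95 with tpMSC. Its place in this order thus does not mean that it fell least. Mt1 lay at 58.6% ± 15.1 and 51.6% ± 4.4, and Slc39a14 at 59.1% ± 3.1 and 46.1% ± 9.8 (SD, n = 3 each).

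Slc39a8 lay below the other importers on this scale with tpMSC, while with MSC its range overlapped that of Slc39a1. Its MSC libraries lay at 14.5%, -23.3% and 44.9%, and its tpMSC libraries at -25.4%, -33.2% and -36.0%, beyond the Control end. Slc39a1 lay at 42.1%, 76.3% and 36.7% with MSC and at 36.2%, 36.2% and 60.4% with tpMSC. Slc30a7 lay at 60.8% ± 28.7 with MSC and 2.0% ± 16.4 with tpMSC (SD, n = 3 each).

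**Figure D5:**
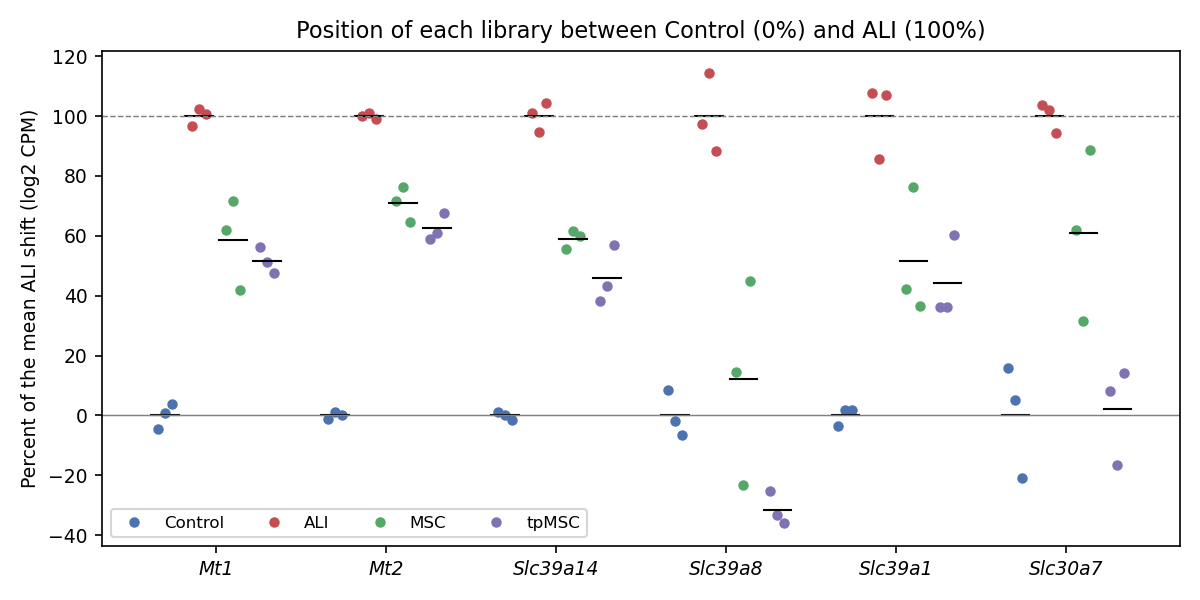
Position of each library (points) between the Control mean (0%) and the ALI mean (100%) on log2 CPM (vertical axis, percent of the ALI shift) for the 6 genes called in ALI. Mt2 is highest in both treated groups, at 70.9% and 62.6% on average, and the 3 tpMSC libraries lie below 0% for Slc39a8.

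The summed levels of importers and exporters in the treated groups are given with no test. Importers summed to 113.3 ± 5.05 FPKM (SD, n = 3) with MSC and 90.8 ± 6.09 (SD, n = 3) with tpMSC. Exporters summed to 28.0 ± 1.13 FPKM with MSC and 28.5 ± 1.16 with tpMSC (SD, n = 3 each). The importer to exporter ratio was 3.76, 3.98 and 4.45 in the MSC libraries, all above the Control libraries, and 3.20, 2.87 and 3.49 in the tpMSC libraries, on both sides of them.

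Shares of the importer sum were computed in the same way. Slc39a8 held 54.2% ± 1.93 of the summed importer FPKM in Control and 38.2% ± 3.88 with tpMSC, while Slc39a1 went from 41.5% ± 2.02 to 52.9% ± 2.10 (SD, n = 3 each). The ratio of Mt2 to Mt1 was 1.77, 1.76 and 2.05 with MSC and 1.26, 1.504 and 2.05 with tpMSC, between the Control and ALI ranges in each of these libraries. In raw counts Mt2 was instead below Mt1 in each of them. With MSC, Mt2 held 2621, 3281 and 2233 counts against 3131, 3958 and 2313 for Mt1. With tpMSC the counts were 1666, 1812 and 2434 against 2808, 2554 and 2512. Which of the pair is higher in the treated groups thus depends on the lengths used for FPKM.

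Other members of the families were read from lists of the remaining ZIP and ZnT genes. As a base for the counts that follow, 20.2% of all genes tested were called higher and 19.6% lower in ALI, and no list was tested as a set. Of 10 further ZIP genes, 9 were tested, and 3 rose and 2 fell in ALI, a share near that of all genes. Slc39a4, encoding the intestinal importer ZIP4, rose from a mean of 13.7 to 32.7 FPKM (log2 difference 1.31 ± 0.13, SE; adjusted p = 1.357e-05, edgeR). Slc39a7, whose product ZIP7 releases zinc from the endoplasmic reticulum and Golgi, rose from 22.9 to 36.3 FPKM (0.73 ± 0.13, SE; adjusted p = 0.00072, edgeR). Slc39a3, encoding ZIP3, fell by 0.47 ± 0.08 in log2, from 9.92 to 6.87 FPKM (SE; adjusted p = 0.000893, edgeR). Slc39a12 was also called lower, at 0.18 FPKM in Control and 0.01 in ALI, a level too low to describe further.

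Of these, Slc39a4 and Slc39a7 were lower again in both treated groups. Slc39a4 fell by 0.63 ± 0.12 with MSC and by 0.77 ± 0.12 with tpMSC against ALI, and Slc39a7 fell by 0.52 ± 0.12 and by 0.74 ± 0.13 in log2 (SE; all 4 called by edgeR). Slc39a3 rose with tpMSC by 0.35 ± 0.08 in log2 (SE; adjusted p = 0.0107, edgeR), while with MSC its difference of 0.18 ± 0.08 was not called (SE; adjusted p = 0.199, edgeR). The third importer that rose in ALI was Slc39a11 (3.98 to 4.99 FPKM), named here after its values were seen, and it was not called against ALI in either treated group. Against ALI, 1 of the 9 rose and 2 fell with MSC, where 5.03% of all genes tested were called higher and 5.21% lower. With tpMSC, 2 rose and 2 fell, where 11.6% were called higher and 11.5% lower. Slc39a12, still low at 0.13 FPKM with MSC and 0.20 FPKM with tpMSC, is the rise with MSC and 1 of the 2 with tpMSC.

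Of 7 further ZnT genes, 6 were in the table and 4 were tested, and 2 rose and 0 fell in ALI, too few genes to set against the 39.8% of all genes called. These were Slc30a5 (8.73 to 11.2 FPKM, log2 difference 0.41 ± 0.09, SE) and Slc30a6 (5.66 to 6.96 FPKM, 0.36 ± 0.09, SE), whose products ZnT5 and ZnT6 pair with each other in the early secretory pathway. The adjusted p-values were 0.00315 and 0.00929 (edgeR). Slc30a8 was not analysed here. With tpMSC, Slc30a5 fell by 0.30 ± 0.09 in log2 against ALI (SE; adjusted p = 0.0325, edgeR). The metallothioneins Mt3 and Mt4, which are typical of brain and of stratified epithelium, had 53 and 4 counts in all 12 libraries together and were not tested.

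Among 10 genes that handle copper, iron and manganese, 5 rose and 1 fell in ALI, where 39.8% of all genes were called. Slc40a1, the iron exporter ferroportin and a known MTF1 target, rose from 1.84 to 4.64 FPKM (log2 difference 1.39 ± 0.14, SE; adjusted p = 1.917e-05, edgeR) and fell by 0.90 ± 0.14 with MSC and by 1.05 ± 0.14 with tpMSC against ALI (SE; adjusted p = 0.00255 and 0.000402, edgeR). Slc11a2, the iron importer DMT1, rose from 8.07 to 12.9 FPKM, and Slc31a1, the copper importer CTR1, from 21.1 to 31.1 FPKM. Atp7b, a copper-exporting pump, fell by 1.26 ± 0.16 in log2, from 8.10 to 3.23 FPKM (SE; adjusted p = 9.226e-05, edgeR). It was higher again with MSC (6.23 FPKM) and tpMSC (6.54 FPKM), both called against ALI.

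S100a8 and S100a9, whose proteins form calprotectin, a neutrophil protein that binds zinc outside the cell, both rose in ALI. S100a8 went from 28.2 to 947.6 FPKM and S100a9 from 107.3 to 2545 FPKM, and both fell with MSC (148.6 and 449.3 FPKM) and with tpMSC (93.4 and 318.3 FPKM). They are also on the neutrophil marker list given above.

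Of 9 inducers and mediators of metallothionein transcription, 7 rose and 1 fell in ALI, where 20.2% of all genes were called higher and 19.6% lower, and the median log2 difference was 1.88. Interleukin 6 (Il6) went from 0.07 to 16.9 FPKM, and Socs3, a target of STAT3 downstream of it, from 10.9 to 119.2 FPKM. Il1b went from 9.73 to 357.8 FPKM and Tnf from 0.687 to 111.7 FPKM. Against ALI, 5 of the 9 fell with MSC and 6 with tpMSC, where 5.21% and 11.5% of all genes tested were called lower. Il6 stood at 3.52 FPKM with MSC and 2.22 FPKM with tpMSC. Of 8 glucocorticoid-responsive genes, 2 rose and 3 fell in ALI, against the same shares of all genes. Fkbp5 rose by 2.28 ± 0.27 in log2 (SE; adjusted p = 5.901e-05, edgeR), while Klf9 fell by 1.44 ± 0.13 (SE; adjusted p = 7.668e-06, edgeR) and Per1 fell by 0.96 ± 0.16 (SE; adjusted p = 0.000594, edgeR).

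Finally, the genes with the most similar course over the 12 libraries were listed for 4 members, by the root-mean-square difference of centred log2 CPM among 12803 genes. Nearest to Mt2 were Serpina3m (0.265) and Serpina3n (0.282), which encode serine protease inhibitors, followed by Wfdc17, Clec4d and Cfb. Nearest to Mt1 were Fcer1g (0.24), a signalling chain of Fc receptors, F13a1, Lpcat2, Pf4 and Tgfbi. Slc39a14 was closest to Itga7 (0.178), Cyp7b1, Mxd1, Tgm1 and Adam8. Slc30a1 was closest to Plscr3 (0.066), Orai3, Vdac1, Cnih1 and Cdk2ap1rt, all of nearly flat course. In the list for Mt1, Slc39a14 ranked 35 (0.345) and its neighbour Mt2 ranked 3550 (0.948), since this measure reflects the size of a change as well as its shape.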

How the data were processed

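RNA of 12 mouse lung libraries, in 4 groups of 3 by sample title, was measured by sequencing of oligo(dT)-selected RNA with strand marking, per the labels' protocols. The authors deposited 1 table of raw read counts and FPKM values per gene, per the file headers. The GRCm38 build, edgeR, DESeq2, StringTie 1.3.4d, HISAT2 2.0.4 and cutadapt 1.9 appear in the submitters' processing notes, with no role given. Which tool counted, with which strand setting and annotation, is not given in the sources used here.

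Genes with low counts were removed by filterByExpr, and libraries were scaled by TMM, which matches them on the bulk of genes. A model with a mean for each of the 4 groups was tested by edgeR's quasi-likelihood method (edgeR 4.0.16, R 4.3.3). P-values were adjusted by Benjamini-Hochberg over 22915 genes, and a gene was called at an adjusted p under 0.05. Each SE was derived from the fold change and F statistic. Levels are deposited FPKM, and CPM used a prior count of 2. Alternatives used DESeq2 1.42.0, limma 3.58.1 on log2(FPKM + 1) and log2(FPKM + 0.1), no filter, other fits and left-out libraries. The scripts were checked on simulated counts.

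All 10 members are named, with up to 4 genes per pathway list (smallest p in any comparison) and the 5 genes most like each of 4 members, leaving out predicted genes, pseudogenes and means under 1 FPKM. Members and lists were chosen with earlier results of these data known. Gene positions in the deposited table differ from GRCm38, so printed positions are those of GENCODE M21, matched by Ensembl ID. For 9 members a promoter was matched by symbol.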

Additional observations from a re-analysis of the deposited data

How the results depend on the processing

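Over 19 alternatives, 1088 values kept their direction and side of the threshold, 26 lost a call, 8 gained one and 18 changed sign. Each call of Mt1, Mt2, Slc39a14 and Slc39a8 in ALI against Control, and in either treated group against ALI, held in all 19. Limits are the 3 libraries per group, the differing cell makeup, and reads that overlapping genes may share. The replicate numbers did not pair the libraries (18 same-number correlations from -0.108 to 0.104, with 4 of 12 libraries closest to their own number). With the replicate block, 0% of all genes were called for tpMSC against MSC, and Slc30a7 in MSC against Control lost its call (adjusted p = 0.0559, edgeR), while no other member call changed. Without the filter on low counts, which puts more genes in the denominator, the share of genes called was 22.6% in ALI, 9.3% in MSC and 7.64% in tpMSC against Control, 4.69% in MSC and 12% in tpMSC against ALI, and 0% in tpMSC against MSC, and 0 members were higher in tpMSC against ALI. DESeq2 called 17.8% for MSC against ALI, 3.47% for tpMSC against MSC and 24.3% for tpMSC against Control, with 1 member lower in tpMSC against MSC. Its size factors in edgeR gave 0.0175% and limma on log2(FPKM + 0.1) 0.0567% for tpMSC against MSC. Fits of only the groups compared gave 5.69% for MSC against ALI, 0% for tpMSC against MSC and 1 member lower in tpMSC against Control.

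Leaving out 1 library at a time, the share of genes called ran from 4.58% to 12.4% for MSC against ALI, 14.3% to 24.6% for tpMSC against ALI, 0% to 1.63% for tpMSC against MSC, 10.5% to 20.1% for MSC against Control and 7.76% to 18% for tpMSC against Control. Members higher in tpMSC against ALI numbered 0 to 1, and members lower in tpMSC against MSC and in tpMSC against Control 0 to 1. Small uncalled log2 differences changed sign. For MSC against ALI these ran from -0.02 to 0.9 (Slc39a2), -0.02 to 0.15 (Slc30a1) and -0.02 to 0.05 (Slc30a4), and for tpMSC against ALI from -0.07 to 0.03 (Mtf1). For tpMSC against MSC they ran from -0.18 to 0.07 (Slc39a1) and -0.47 to 0.49 (Slc39a2), for MSC against Control from -0.04 to 0.35 (Slc39a8) and -0.08 to 0.08 (Slc30a1), and for tpMSC against Control from -0.03 to 0.04 (Slc30a4) and -0.03 to 0.05 (Slc30a7). Under limma with either pseudocount the last pair were -0.02 (Slc30a4) and -0.03 (Slc30a7). The cause of these shifts was not tested.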
